A study of Rattus norvegicus with 15 samples.

Results

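Transcripts of the epithelial oxidases, the enzymes that make hydrogen peroxide, superoxide and nitric oxide at the lining of the gut, were followed along the digestive tract of the rat. Members were the array probes whose gene name in the scanner files was Duox1, Duox2, Duoxa2, Nox1, Noxo1 or Nos2. Of these 6 genes, 5 had a probe, 1 probe each, among 41012 distinct probes that stood for 34967 genes in all; no probe carried the name Duoxa2, which was not analysed here. Noxo1 was listed under a provisional name, Noxo1_predicted. The 5 members passed the filter on dim probes and entered a fit of 33099 genes.

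The 15 samples were suspensions of mucosal cells, 3 from each of 5 segments: stomach, duodenum, jejunum, ileum, colon. The rats were untreated Sprague Dawley males per the labels, with no age given; the labels of ileum 3 name the tissue only. Inverted segments were exposed to pronase for a short time and the released cells purified by elutriation, and RNA of each isolation was labelled with Cy3 or Cy5 and read as a single channel of a whole-genome Agilent array. The labels do not tie isolations to separate animals, so the p-values measure the spread between these isolations, which may be technical. In such suspensions a lower signal from fewer cells of a type and one from less RNA per cell cannot be told apart.

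The dual oxidases are large membrane enzymes at the apical face of epithelial cells that release hydrogen peroxide to the outside, and they need a maturation factor, Duoxa1 or Duoxa2, to leave the endoplasmic reticulum. Duox2 is the form known for the gut, where it is induced by microbes and by interferon and interleukin signals, and Duox1 is best known in the airway and thyroid. Nox1 makes superoxide and is classically an oxidase of colon epithelium; it works with the membrane subunit Cyba, the organiser Noxo1, the activator Noxa1 and a Rac GTPase. Nos2 is the inducible synthase that makes nitric oxide from arginine, in epithelium as well as in macrophages.

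The 5 probes, each 60 bases long, are shown because every value below is the signal of 1 of them; they are written 5′ to 3′ in lower case, with no part marked.
Duox2: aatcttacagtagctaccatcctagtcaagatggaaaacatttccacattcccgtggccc
Duox1: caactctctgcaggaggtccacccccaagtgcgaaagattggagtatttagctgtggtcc
Nox1: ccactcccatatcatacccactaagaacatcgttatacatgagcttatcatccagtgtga
Noxo1: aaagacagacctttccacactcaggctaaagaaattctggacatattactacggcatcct
Nos2: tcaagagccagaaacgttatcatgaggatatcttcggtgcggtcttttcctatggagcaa
On the rn4 build, the Duox2 probe was placed at chr3:109059633-109059692 on the minus strand and the Noxo1 probe at chr10:13952741-13952800 on the plus strand. For Duox1 the files gave chr3:109127106-109127796 on the plus strand, an interval of 691 bases, and for Nos2 chr10:65070211-65072250 on the plus strand, an interval of 2040 bases, both longer than the probe; no position was read for the Nox1 probe. No rn4 gene models were used, so the exon of each probe is not stated.

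Levels are log2 processed signals relative to the 75th percentile of the same sample, so that 0 is the signal of a probe at that percentile; they order samples for 1 probe and do not rank one gene against another. Median processed intensities ran from 92.4 (colon 3) to 1050 (ileum 3). Probes well above background made up 95.4% to 97.1% in the stomach, where the scanner software used a lower limit, and from 44.4% (ileum 1) to 92.5% (duodenum 3) elsewhere. The 3 colon samples were read from a slide with 1 barcode, colon 1 and 2 in one scan and colon 3 in another, with colon 2 and 3 in the same dye. Colon SDs may therefore understate the spread between isolations, and colon results are also given with colon 2 and 3 averaged. Stomach, ileum and colon had slides and scan days of their own. For these segments the slide or scan day and the segment cannot be told apart. Duodenum and jejunum shared slides. All 3 ileum samples were labelled with Cy3, while each other segment held both dyes. The dye term of the fit, as applied to the ileum, therefore rests on the dye difference in the other segments. Stomach and colon were also read with scanner software versions of their own, and the stomach at a coarser scan resolution. The identity markers of the labelled segments were checked. Against the mean of stomach, duodenum and jejunum, Fabp6, the ileal bile acid binding protein, was 8.57 higher on the log2 scale in the ileum, and Car1, a carbonic anhydrase of colon epithelium, 6.45 higher in the colon, a value that was 1.78 and missed the threshold with the mean over its probes. Of 4 colon identity genes 3 passed as higher in the colon; Hoxd10, a homeobox gene, did not (-1.08, adjusted p = 0.111). All 8 epithelial markers listed (Epcam, Cdh1, Vil1, Cdh17 and 4 keratins) were well above background in all 15 samples.

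**Figure D1:**
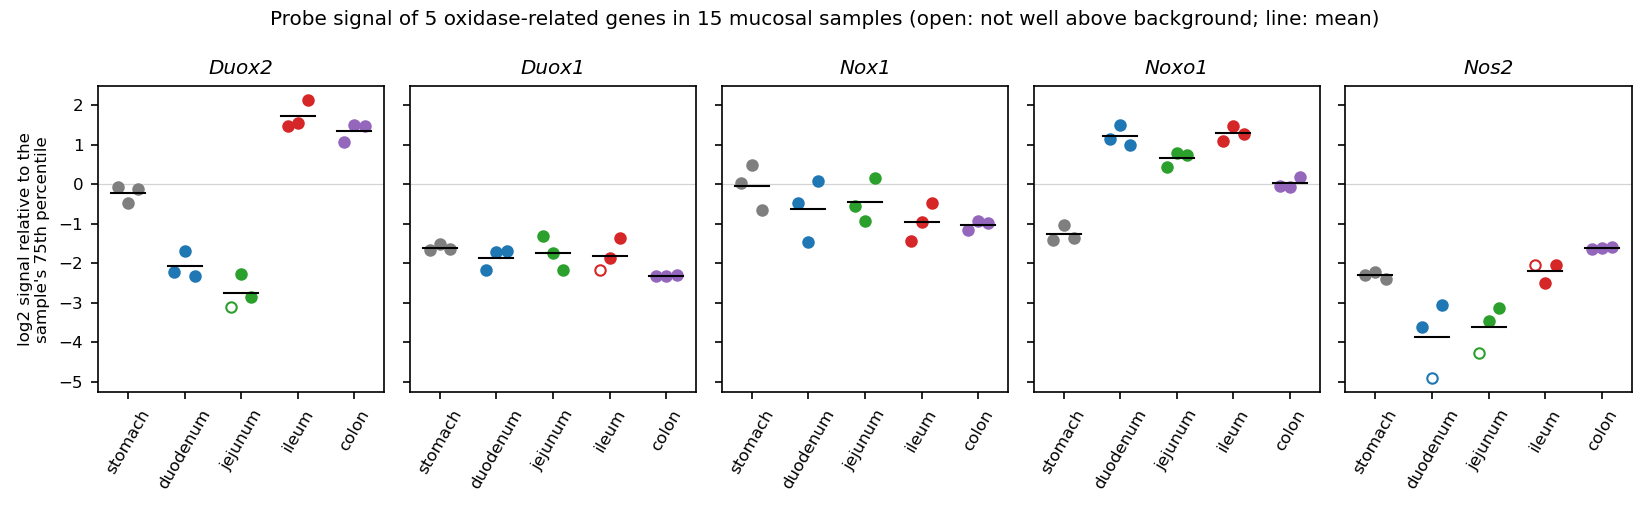
Log2 signal of the Duox2, Duox1, Nox1, Noxo1 and Nos2 probes relative to each sample's 75th percentile, in 3 samples of each of 5 segments; points are samples, open points were not well above background, and lines are means. Duox2 is above 1 in every ileum and colon sample and below 0 in every other sample, Noxo1 is lowest in the stomach, and the Nox1 and Duox1 points of most segments overlap.

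Duox2, the dual oxidase of the gut, had a distal pattern with a trough in the upper small bowel. In the ileum the 3 samples read 1.48, 1.54 and 2.13, and in the colon 1.06, 1.50 and 1.46. In the stomach they read -0.07, -0.47 and -0.12. In the duodenum they fell to -2.21, -1.69 and -2.33, and in the jejunum to -3.11, -2.28 and -2.86, where jejunum 1 was not well above background. Every ileum and colon sample lay above every stomach sample, and every stomach sample above every duodenal and jejunal one, with no overlap. The order of segment means was ileum (1.71 ± 0.36, SD, n = 3), colon (1.34 ± 0.24), stomach (-0.22 ± 0.22), duodenum (-2.08 ± 0.34) and jejunum (-2.75 ± 0.43).

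Against the mean of stomach, duodenum and jejunum, taken here as the proximal segments, Duox2 was 11-fold higher in the ileum, a log2 difference of 3.46 ± 0.28 (standard error, SE, of the limma fit; adjusted p = 8.89e-07, higher in 3 of 3 samples). In the colon it was 7.94-fold higher (2.99 ± 0.33, adjusted p = 5.65e-06). With colon 2 and 3 averaged as 1 sample the colon difference was 2.94 (adjusted p = 7.22e-05), and with normexp background correction it was 1.57 (adjusted p = 1.29e-05). The step from jejunum to ileum was 22.8-fold (4.51 ± 0.32, adjusted p = 7.97e-07), and from duodenum to ileum 14.9-fold (3.89 ± 0.34, adjusted p = 3.3e-06). The stomach was in between: Duox2 was 3.96-fold higher in the ileum than in the stomach (1.98 ± 0.32, adjusted p = 0.000207) and 2.85-fold higher in the colon than in the stomach (1.51 ± 0.37, adjusted p = 0.00477), while it was 3.75-fold lower in the duodenum and 5.77-fold lower in the jejunum than in the stomach (adjusted p = 0.000299 and 1.3e-05). The colon excess over the stomach was 0.59 with normexp and then missed the threshold (adjusted p = 0.108).

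Neighbours in the Duox2 order were ileum and colon, and duodenum and jejunum. Colon and ileum differed by -0.47 (95% confidence interval -1.29 to 0.34, adjusted p = 0.455); with normexp the difference was -1.36 and passed (adjusted p = 0.00227). Jejunum minus duodenum was -0.62 (interval -1.17 to -0.08, adjusted p = 0.499). Within the 3 slides that held both segments that difference was -0.65, -1.42 and 0.05, lower in the jejunum on 2 of the 3 slides. Without jejunum 2 it was -0.94 and passed (adjusted p = 0.0353).

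The RefSeq promoter table (build GRCr8) held windows for 4 members, Duox1, Duox2, Nox1 and Noxo1. The Duox2 window, chr3:129698704-129699003 on the minus strand, is shown because Duox2 had the widest range of segment means among the members; capitals mark TTTATAG, a sequence of the kind bound by the CDX homeobox factors of intestinal epithelium.
Duox2 promoter: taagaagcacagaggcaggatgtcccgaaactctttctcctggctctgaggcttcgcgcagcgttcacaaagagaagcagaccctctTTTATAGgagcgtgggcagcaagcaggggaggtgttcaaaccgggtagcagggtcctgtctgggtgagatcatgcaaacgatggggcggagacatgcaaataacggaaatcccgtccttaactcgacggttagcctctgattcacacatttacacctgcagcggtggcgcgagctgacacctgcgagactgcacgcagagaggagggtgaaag
Motifs were looked for on both strands after this sequence had been seen. TTTATAG began at base 88 of the Duox2 window and was in none of the other 3; it occurred in 3.7% of 27457 promoter windows of that length. TATAAA, the core of a TATA box, is part of TTTATAG when read on the opposite strand. Its match in the Duox2 window is therefore the same stretch and not a separate one. TATAAA occurred in 14.3% of windows. TTTATGG (3.0% of windows), TTCNNNGAA, the STAT-type sequence (8.7%), and AGATAA, the GATA-type sequence (11.3%), were in none of the 4 windows.

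Duox1, the dual oxidase best known in airway and thyroid, varied little, with segment means 0.71 apart. The stomach samples read -1.67, -1.51 and -1.63, the duodenum -2.18, -1.71 and -1.68, and the jejunum -1.32, -1.75 and -2.16. The ileum read -2.18, -1.87 and -1.37, with ileum 1 not well above background, and the colon -2.32, -2.32 and -2.30. The colon samples were the lowest, below every other sample, and the other segments overlapped except duodenum and stomach. Duox1 passed in 0 of the 12 contrasts between segments by limma, and in 0 at an unadjusted p under 0.05. Its ileum difference from the proximal segments was -0.09 (interval -0.67 to 0.49, adjusted p = 0.897), and its colon difference was -0.57 (interval -1.25 to 0.11, adjusted p = 0.192). In the ileum the intervals of Duox2 (2.88 to 4.05) and Duox1 were thus far apart; the difference between the genes was not tested. Without duodenum 2, jejunum 1 and ileum 1, the samples with the fewest probes well above background, colon minus stomach for Duox1 was -0.71 and passed (adjusted p = 0.0335).

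The Duox genes lie together in the rat genome, and their surroundings were read from RefSeq gene order on chromosome 3 (GRCr8, order only). The protein-coding genes ran Trim69, Terb2, Sord, Duox2, Duoxa2, Duoxa1, Duox1, Shf and Slc28a2, of which Terb2, Duoxa2 and Shf had no probe by name. Sord, the sorbitol dehydrogenase gene and the nearest protein-coding neighbour on the far side of Duox2, had the same order of the proximal segments. It read -0.43, -0.73 and -0.48 in the stomach, -2.90, -2.69 and -3.17 in the duodenum and -5.06, -3.07 and -3.06 in the jejunum. It read -0.25, -0.17 and -0.06 in the ileum; colon samples read 1.39, 1.25 and 1.20. Every ileum and colon sample lay above every proximal one, and every colon sample above every ileum one. Sord was 5.08-fold higher in the ileum than in the proximal segments (2.34 ± 0.39, adjusted p = 0.00122) and 12.3-fold higher in the colon (3.62 ± 0.46, adjusted p = 2.26e-05). Unlike for Duox2, ileum minus stomach did not pass for Sord (0.46, adjusted p = 0.505). Colon minus ileum passed for neither gene, at 1.28 for Sord (adjusted p = 0.125) and -0.47 for Duox2 (adjusted p = 0.455). Duoxa1, the maturation factor paired with Duox1, differed by 0.07 in the ileum (adjusted p = 0.926) and by 0.51 in the colon (adjusted p = 0.286), but it was 2.05-fold lower in the jejunum than in the stomach (adjusted p = 0.0345). Trim69 differed by 0.07 and 0.39 (adjusted p = 0.9 and 0.288). Slc28a2, a nucleoside transporter, ran the other way: it was 6.66-fold lower in the colon (-2.74 ± 0.37, adjusted p = 4.01e-05). Its colon samples overlapped those of the stomach, and colon minus stomach did not pass (0.29, adjusted p = 0.614). Against the proximal mean the ileum did not pass (adjusted p = 0.999), but that mean joined unlike segments. Slc28a2 was 8.15-fold higher in the ileum than in the stomach (adjusted p = 8.99e-06). It was 3.11-fold and 2.63-fold lower there than in duodenum and jejunum (adjusted p = 0.0286 and 0.037). The neighbours were looked at after Sord had been found among the genes most like Duox2.

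**Figure D2:**
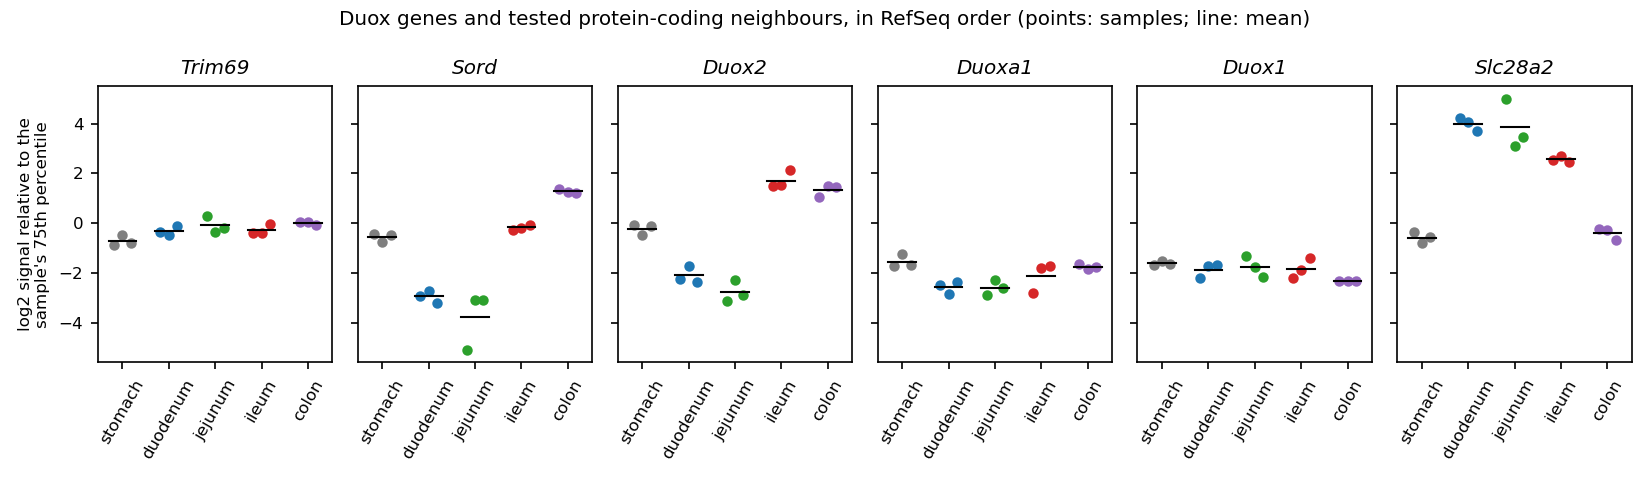
Log2 signal relative to each sample's 75th percentile for Duox2, Duox1 and the neighbouring protein-coding genes that were tested, in RefSeq order along chromosome 3; points are the 15 samples and lines are segment means. Sord and Duox2 are both lower in duodenum and jejunum than in ileum and colon. The ileum mean of Sord, -0.16, lies nearer its stomach mean of -0.54 than its colon mean of 1.28. The segment means of Duoxa1 run from -2.57 in the jejunum to -1.54 in the stomach, and Slc28a2 is highest in duodenum and jejunum.

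Nox1, the superoxide-making oxidase known from colon epithelium, had overlapping samples in most segments and its lowest mean in the colon. The stomach samples read 0.04, 0.49 and -0.66, the duodenum -0.48, -1.46 and 0.07, and the jejunum -0.55, -0.92 and 0.15. The ileum read -1.44, -0.96 and -0.47 and the colon -1.15, -0.93 and -0.99. The duodenal samples alone ran from -1.46 to 0.07, while the 5 segment means were 0.98 apart, and 71.7% of the genes tested had a wider range of means. The Nox1 probe was well above background in all 15 samples. No genome position was read for it, and whether it reads Nox1 alone was not tested. Nox1 passed in 0 of the 12 contrasts by limma, and in 0 at an unadjusted p under 0.05. Colon minus the proximal segments was -0.67 (interval -1.60 to 0.27, adjusted p = 0.267), an interval whose upper end is a rise of 0.27. Ileum minus the proximal segments was -0.55 (interval -1.35 to 0.24, adjusted p = 0.411). Without the 3 samples with the fewest probes well above background, colon minus proximal was -0.85 and colon minus stomach -1.04, and both passed as lower (adjusted p = 0.0479 and 0.0343). With normexp, ileum minus stomach was -0.76 and passed as lower (adjusted p = 0.0484).

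Noxo1, the organiser that holds the Nox1 complex in its active form, was lowest in the stomach and highest in duodenum and ileum. The stomach samples read -1.40, -1.02 and -1.36. Duodenal samples read 1.15, 1.50 and 0.98, jejunal ones 0.44, 0.78 and 0.75, the ileum 1.1, 1.48 and 1.27 and the colon -0.05, -0.07 and 0.18. The stomach lay below every other sample, the colon between stomach and jejunum with no overlap, and duodenum and ileum overlapped. Against the stomach Noxo1 was 5.46-fold higher in duodenum (2.45 ± 0.25, adjusted p = 1.6e-06), 3.78-fold in jejunum (1.92 ± 0.24, adjusted p = 1.83e-05), 5.92-fold in ileum (2.57 ± 0.25, adjusted p = 9.5e-07) and 2.4-fold in colon (1.26 ± 0.29, adjusted p = 0.00294).

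Between ileum and colon Noxo1 fell 2.47-fold (-1.30 ± 0.30, adjusted p = 0.00761; -1.31 and adjusted p = 0.0156 with colon 2 and 3 averaged). The colon was also 2.27-fold below the duodenum (adjusted p = 0.00659), and 0.65 below the jejunum without passing (adjusted p = 0.108). That difference passed in 3 alternatives: without jejunum 1 (-0.80, adjusted p = 0.05 after rounding), with no slide block (-0.65, adjusted p = 0.0392) and without the 3 samples with the fewest probes well above background (-0.73, adjusted p = 0.0186). The ileum was 2.16-fold above the mean of the proximal segments (1.11 ± 0.22, adjusted p = 0.00442), but the sides overlapped, with duodenum and ileum at 1.21 and 1.28 on average (ileum minus duodenum 0.12, interval -0.44 to 0.68, adjusted p = 0.895). Without the stomach samples the ileum difference was 0.41 (adjusted p = 0.504) and the colon difference, -0.19 with them (adjusted p = 0.602), was -0.93 and passed (adjusted p = 0.0432). Jejunum minus duodenum was -0.53 (adjusted p = 0.423), and -0.40, -1.06 and -0.20 within the 3 shared slides, lower in the jejunum on each. Nox1 and Noxo1, partners in 1 complex, had a Pearson correlation of -0.40 over the 15 samples, given as a description of samples that share arrays and segments.

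Nos2, the inducible nitric oxide synthase, gave a dim signal that was highest in the colon. The colon samples read -1.63, -1.62 and -1.59, and the ileum -2.04, -2.49 and -2.05. The stomach read -2.30, -2.21 and -2.41, the duodenum -3.62, -4.91 and -3.06 and the jejunum -4.26, -3.46 and -3.12. The probe was not well above background in duodenum 2, jejunum 1 and ileum 1, so these values are near the limit of the arrays. Every colon sample lay above every other sample, and every stomach and ileum sample above every duodenal and jejunal one.

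Nos2 was 3.1-fold higher in the colon than in the proximal segments (1.63 ± 0.43, adjusted p = 0.00905, higher in 3 of 3 samples; 1.64 and adjusted p = 0.0229 with colon 2 and 3 averaged). It was 4.76-fold higher in the colon than in the duodenum (2.25 ± 0.48, adjusted p = 0.003) and 3.93-fold higher than in the jejunum (1.97 ± 0.49, adjusted p = 0.00752). Colon minus ileum was 0.52 (interval -0.56 to 1.61, adjusted p = 0.545) and colon minus stomach 0.67 (interval -0.37 to 1.70, adjusted p = 0.307); both passed with normexp (0.98 and 1.06, adjusted p = 0.0232 and 0.00393), and colon minus stomach also with quantile normalisation (1.11, adjusted p = 0.0429). Below the stomach were duodenum (-1.58 ± 0.42, adjusted p = 0.0116) and jejunum (-1.31 ± 0.41, adjusted p = 0.0312), and with normexp neither passed (-0.21 and -0.30, adjusted p = 0.626 and 0.503). The jejunal value also missed the threshold with quantile normalisation (-0.87, adjusted p = 0.0772), with scan day as block, without the colon samples, and without stomach 1, 2 or 3 or jejunum 1 or 2 in turn, at -1.20 to -1.40.

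In the ileum Nos2 was 1.11 ± 0.37 above the proximal segments and missed the threshold (adjusted p = 0.0726). It passed in 3 of 32 alternatives, without duodenum 2 (1.04, adjusted p = 0.0403), without duodenum 3 (1.17, adjusted p = 0.037) and with quantile normalisation (0.97, adjusted p = 0.0416), and was 0.26 with normexp (adjusted p = 0.512). Ileum minus jejunum, 1.45 ± 0.42, likewise missed it (adjusted p = 0.0611). It passed in 4 alternatives, without duodenum 2 (1.51, adjusted p = 0.0255) or duodenum 3 (1.40, adjusted p = 0.0384), with the filter that ignores the stomach flags (adjusted p = 0.0492) and with no dye term (adjusted p = 0.0484), and was 0.39 with normexp (adjusted p = 0.447). Ileum minus duodenum, 1.73 ± 0.45, passed narrowly (adjusted p = 0.0476) and did not in 23 of 32 alternatives, among them those without each single sample other than duodenum 3 and jejunum 1. Over the 15 samples Nos2 correlated with Duox2 at 0.81, given as a description; the 2 probes share arrays and segments.

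**Figure D3:**
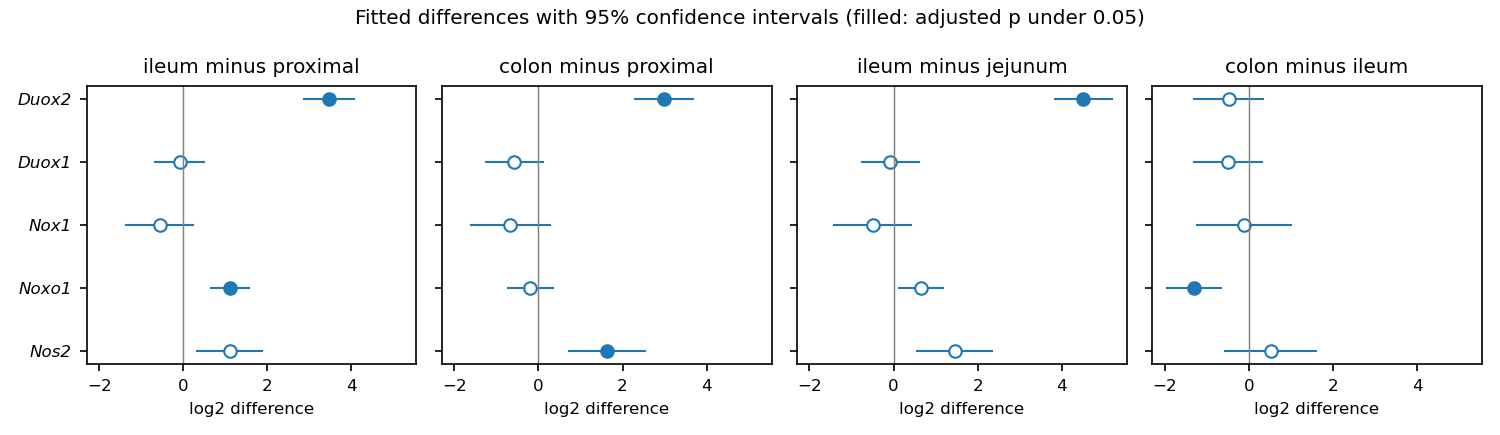
Fitted log2 differences of the 5 members, with 95% confidence intervals, for ileum and colon against the mean of stomach, duodenum and jejunum, for ileum against jejunum and for colon against ileum; filled points passed an adjusted p under 0.05. Duox2 lies at 3.46, 2.99 and 4.51 in the first 3 comparisons, Noxo1 passes as higher in ileum against proximal and as lower in colon against ileum, and Nos2 passes in colon against proximal.

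Counted over the members, 2 of 5 passed in ileum against the proximal segments (Duox2 and Noxo1), where 8.35% of all genes tested did, and 2 of 5 in colon against the proximal segments (Duox2 and Nos2), where 30.7% did. In ileum against jejunum 1 of 5 passed (Duox2), against 4.35% of all genes, and in colon against ileum 1 of 5 (Noxo1), against 15.5%. In jejunum against duodenum 0 of 5 passed with limma, where 0.523% of all genes did; the unadjusted p was 0.0282 for Duox2 and 0.0175 for Noxo1 and above 0.05 for the other 3. Against the stomach, 3 of 5 members passed in the duodenum and 3 in the jejunum (Duox2, Noxo1 and Nos2), beside 22.8% and 21.5% of all genes, and 2 of 5 in ileum and colon (Duox2 and Noxo1), beside 22.6% and 35.4%. Against the duodenum, 2 of 5 passed in the ileum (Duox2 and Nos2), beside 2.86%, and 3 in the colon (with Noxo1), beside 23.3%. In colon against jejunum 2 of 5 passed (Duox2 and Nos2), beside 25.6%. An F test over the 5 segments passed for 3 of 5 members, Duox2 (adjusted p = 7.49e-08), Noxo1 (2.23e-06) and Nos2 (0.00433), where 42.2% of all genes passed, and not for Nox1 (0.306) or Duox1 (0.535). The share of genes tested with a wider range of segment means than the member was 1.9% for Duox2, 11.9% for Noxo1 and 16.7% for Nos2. The median gene shifted by -0.32 to -0.25 in the contrasts against the stomach and by at most 0.10 in size in the others, and the differences above are not corrected for it.

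Transcripts of other cells moved with the segments too. For the counts below, 4.14% of all genes passed as higher and 4.21% as lower in the ileum against the proximal segments. In the colon these shares were 14% and 16.7%. The summed level of 5 T cell markers was 3.54 to 3.96 in the ileum, 3.00 to 3.54 in duodenum and jejunum, 1.38 to 1.59 in the stomach and 1.73 to 1.80 in the colon, and 3 of the 5 (Cd8a, Cd3e and Cd3g) passed as higher in the ileum than in the proximal segments; in the colon 1, Cd3g, passed, as lower. Of 10 macrophage and monocyte markers tested, 4 passed as higher in the ileum, Aif1, C1qb, C1qa and Cd14. In the colon 1 of the 10, Cd14, passed as higher and 3, Mrc1, Adgre1 and C1qc, as lower. Their summed level was 3.46 to 3.69 in the stomach, 3.16 to 3.81 in duodenum and jejunum, 3.69 to 4.11 in the ileum and 4.09 to 4.39 in the colon. A summed level is weighted to the brightest probes, and the mean log2 level of these markers ran otherwise. That mean was -0.28 to -0.10 in the stomach, -0.78 to 0.13 in duodenum and jejunum, -0.03 to 0.33 in the ileum and -0.81 to -0.63 in the colon. Of 6 neutrophil markers, 1 passed in the colon, Ncf1, as lower; their summed level was 1.16 to 2.37 in the proximal segments, 1.51 to 1.97 in the ileum and 1.24 to 1.83 in the colon. The summed level of 6 fibroblast markers was 5.98 to 6.35 in the stomach and 1.57 to 2.81 elsewhere. Their mean log2 level was 1.60 to 1.73 in the stomach, -1.87 to -0.90 in duodenum and jejunum, -1.27 to -0.65 in the ileum and -2.48 to -2.32 in the colon. Of the 6, 3 passed as lower in the ileum and 4 in the colon. Without the stomach samples the ileal calls (Dcn, Col1a1 and Col1a2) were lost, as were those of Dcn and Col3a1 in the colon. Of 8 epithelial markers, 3 passed as higher in the ileum and 7 in the colon than in the proximal segments, and none of them passed as higher without the stomach samples (Vil1 in the colon then passed as lower, at -1.56), where Krt20, Vil1 and Cdh17 in the ileum were -0.88, -0.58 and -1.04. Of 5 goblet cell markers 2 passed as higher in the ileum (Tff3 and Zg16) and 3 in the colon; without the stomach samples Tff3 and Zg16 in the ileum were -1.24 and -0.48, and Tff3 in the colon was -0.79, each call being lost. Of 7 proliferation markers 3 passed as higher in the ileum, and 2 as higher and 2 as lower in the colon. The part of these cells in the levels of Duox2, Noxo1 and Nos2 was not tested.

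The partners of the oxidases, a list of 12 genes, were led by Cyba in the colon. Cyba, the small membrane subunit shared by the Nox enzymes, averaged 0.56 in the stomach, 1.88 and 1.42 in duodenum and jejunum, 2.07 in ileum and 4.68 in colon. It was 10.3-fold higher in the colon than in the proximal segments (3.37 ± 0.24, adjusted p = 6.89e-08). In the ileum it was 1.78-fold higher (0.83 ± 0.20, adjusted p = 0.0186). That call was lost without ileum 2, ileum 3 or the stomach samples, and with the replicate number as a block. Rac2, a Rac GTPase best known in blood cells, was higher in the ileum (1.46 ± 0.28, adjusted p = 0.00431) and in the colon (1.93 ± 0.33, adjusted p = 0.000414). Noxa1, the activator of Nox1, was 2.07-fold higher in the colon (1.05 ± 0.28, adjusted p = 0.00968), a call lost without the stomach samples. Ncf1, the organiser of the phagocyte oxidase, was 6.52-fold lower in the colon (-2.71 ± 0.34, adjusted p = 2.07e-05), while Cybb, its catalytic subunit, differed by -0.74 (adjusted p = 0.115). In all, 2 of 12 passed in the ileum, both as higher, where 4.14% and 4.21% of all genes passed as higher and as lower, with a median of 0.08 beside -0.02 for all genes. In the colon 3 passed as higher and 1 as lower, beside 14% and 16.7% of all genes, with a median of 0.21 beside -0.04. Without the stomach samples 1 passed in the ileum, and 2 as higher and 1 as lower in the colon.

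Genes that use or remove hydrogen peroxide, 19 tested, were led by Lpo in the colon. Lpo, the peroxidase of milk, saliva and airway that uses hydrogen peroxide to oxidise thiocyanate, averaged 2.22 ± 0.60 (SD, n = 3) in the colon and -4.22 to -3.15 in the other segments. It was 60.2-fold higher in the colon than in the proximal segments (5.91 ± 0.57, adjusted p = 1.4e-06), where it was well above background in 6 of 9 samples, and 4.54 to 6.20 on the log2 scale under the alternatives. In the ileum Lpo differed by 0.69 (adjusted p = 0.424). Gpx2, the glutathione peroxidase of gut epithelium, was 6.17-fold higher in the ileum (2.63 ± 0.37, adjusted p = 0.00034) and 4.1-fold higher in the colon (2.03 ± 0.44, adjusted p = 0.00233), the colon call being lost without the stomach samples. Gpx3, a secreted glutathione peroxidase, was 4.18-fold higher in the colon (adjusted p = 0.00233), and Prdx6, a peroxiredoxin, 2.66-fold (adjusted p = 0.000423). The Gpx3 probe was well above background in 1 of 3 duodenal and 0 of 3 jejunal samples, so its fold rests partly on values near the limit of the arrays. Sod3, the extracellular superoxide dismutase, was 2.9-fold lower in the ileum and 2.56-fold lower in the colon (adjusted p = 0.000692 and 0.00162), calls lost without the stomach samples. Mpo, the neutrophil peroxidase, differed by 0.14 in the ileum and 0.37 in the colon (adjusted p = 0.851 and 0.481). In the colon 9 of 19 passed as higher and 2 as lower, beside 14% and 16.7% of all genes, with a median of 0.63. In the ileum 1 passed as higher and 3 as lower, beside 4.14% and 4.21%, with a median of -0.31. With colon 2 and 3 averaged, without colon 1 or without colon 3, 5 passed as higher in the colon and 2 as lower.

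Of 14 genes of nitric oxide and arginine handling, Ddah1, which breaks down the methylated arginines that inhibit nitric oxide synthases, was 14.9-fold higher in the colon (3.89 ± 0.29, adjusted p = 1.12e-07) and 2.43-fold lower in the ileum (-1.28 ± 0.25, adjusted p = 0.00401), the ileal call being lost without the stomach samples and with the mean over its probes. Ddah2, its relative, was 3-fold higher in the colon (adjusted p = 0.000702). The arginases, which compete for arginine, differed by segment. Arg1 was 5.41-fold lower in the ileum (-2.43 ± 0.35, adjusted p = 0.000359) and did not pass in the colon (-0.97, adjusted p = 0.0823). Arg2 was 4.6-fold lower in the colon (-2.20 ± 0.36, adjusted p = 0.000269) and passed as higher in the ileum (1.02, adjusted p = 0.05 after rounding), a call lost in 22 of 32 alternatives. Arg2 averaged -2.76 in the stomach and 3.37 and 3.56 in duodenum and jejunum, so the proximal mean lay between very unlike segments. Slc7a1, a cationic amino acid transporter, was 2.79-fold lower in the ileum and 3.19-fold lower in the colon (adjusted p = 0.000329 and 9.4e-05), calls lost without the stomach samples. Spr, which makes the cofactor tetrahydrobiopterin, was 2.39-fold higher in the ileum (adjusted p = 0.00549), a call lost without the stomach samples. Nos3, the endothelial synthase, differed by -0.25 in the ileum and -0.13 in the colon (adjusted p = 0.776 and 0.861). In the ileum 3 of 14 passed as higher and 3 as lower, beside 4.14% and 4.21% of all genes, with a median of -0.06. In the colon 3 passed as higher and 2 as lower, beside 14% and 16.7%, with a median of -0.03. The ileal count of higher genes was 1 to 3 when single samples were left out, and 1 without stomach 2, duodenum 1, ileum 2 or colon 1.

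Among 21 tested genes of the receptors and signals that act upstream of Duox2 and Nos2, Tlr4, the receptor for bacterial lipopolysaccharide, was 26.3-fold higher in the colon (4.72 ± 0.32, adjusted p = 3.49e-08), and Tlr2, the receptor for bacterial lipoproteins, was 3.37-fold higher in the ileum and 4.53-fold higher in the colon (adjusted p = 0.000283 and 3.36e-05). Ifngr1, a chain of the interferon gamma receptor, was 3.15-fold higher in the ileum and 6.31-fold higher in the colon (adjusted p = 0.00255 and 3.75e-05), and its ligand Ifng was 3.93-fold higher in the ileum (adjusted p = 0.00471) and differed by 0.20 in the colon (adjusted p = 0.771). Irf1, a factor induced by interferon, was 2.17-fold higher in the ileum (adjusted p = 0.00571), and Nfkb1, a subunit of NF-kappaB, 3.54-fold higher in the colon (adjusted p = 3.15e-05). The ileal calls of Ifngr1 and Irf1 were lost without the stomach samples and that of Ifng with normexp. Il22ra1, the receptor chain for interleukin 22 on epithelium, differed by -0.18 and -0.01 (adjusted p = 0.783 and 0.988), and Stat3, its signal carrier, by -0.27 and 0.72 (adjusted p = 0.621 and 0.111). In all 7 of 21 passed in the ileum, all as higher, where 4.14% of all genes did, with a median of 0.57. In the colon 8 passed as higher and 3 as lower, beside 14% and 16.7% of all genes, with a median of 0.33. The lower ones were Il17rc (-1.58, a call lost in 0 of 31 alternatives), Il1b (-1.21, lost in 14 of 31) and Tlr5 (-0.81, lost without the stomach samples). Il1b passed as higher in the ileum (1.29, a call lost in 10 of 32 alternatives). The ileal count was 4 without stomach 1, duodenum 1, ileum 1 or ileum 3, and without the stomach samples 2 passed as higher and 1 as lower; the colon count was 5 as higher without stomach 3 or without the stomach samples.

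Of 14 tested genes listed for epithelial defence or response to microbes, 4 passed in the ileum, all as higher. Among all genes 4.14% passed as higher there. Reg3g and Reg3b, C-type lectins that act on bacteria, passed as higher there (adjusted p = 3.72e-05 and 0.000393); no fold is given, because Reg3b was saturated in all 3 ileum samples and Reg3g in 1, and both calls were lost without the stomach samples. Ubd, a ubiquitin-like protein induced by interferon, was 9.36-fold higher in the ileum (adjusted p = 0.000105). In the colon 5 passed as higher and 3 as lower, beside 14% and 16.7% of all genes. The chemokine Cxcl1 was 13.3-fold higher there (3.73 ± 0.44, adjusted p = 1.25e-05), the siderophore-binding protein Lcn2 5.91-fold (adjusted p = 0.000364) and the fucosyltransferase Fut2 5.15-fold (adjusted p = 9.91e-06). Reg3b was 6.89-fold lower in the colon than the proximal mean (adjusted p = 0.000713), a mean over very unlike segments. It averaged -1.23 in the stomach, 6.46 and 4.04 in duodenum and jejunum, and 0.41 in the colon. The medians were -0.04 in the ileum and -0.34 in the colon. Pigr, the immunoglobulin transporter, differed by -1.14 and -0.51 (adjusted p = 0.107 and 0.464). Without the stomach samples 1 passed in the ileum, and 5 as higher and 2 as lower in the colon. In these lists ileum and colon are each set against the same proximal samples.

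**Figure D4:**
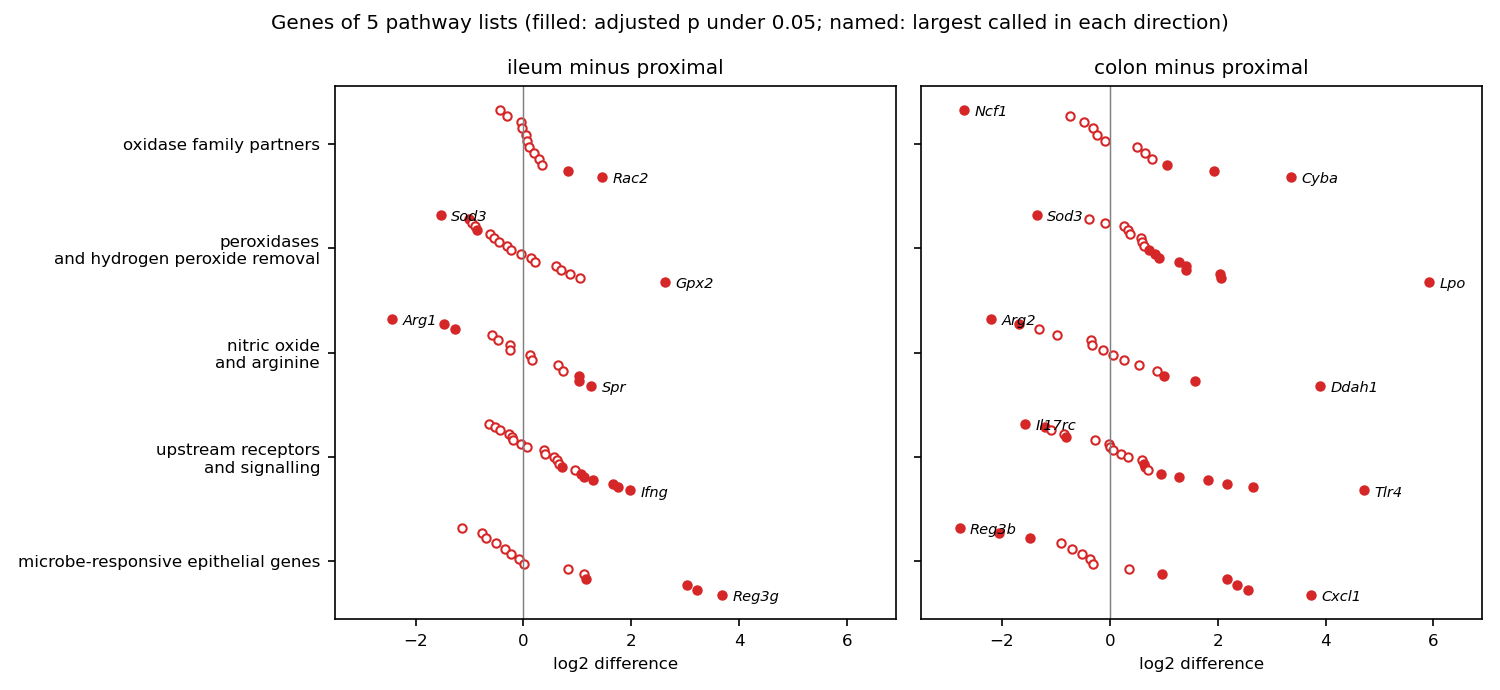
Fitted log2 differences of the genes of 5 lists in ileum and in colon against the mean of stomach, duodenum and jejunum; each point is a gene, filled points passed an adjusted p under 0.05, and the largest passing gene shown in each direction is named; 1 gene of the peroxidase list is not drawn. Lpo at 5.91, Tlr4 at 4.72, Ddah1 at 3.89 and Cyba at 3.37 stand out to the right in the colon, and Gpx2 at 2.63 in the ileum; Reg3g in the ileum includes 1 saturated sample.

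The genes whose 15 log2 levels followed Duox2 most closely, among 15379 genes with a settled symbol and a value in every sample, were Ly6al (Pearson correlation 0.938), Cdkl1 (0.937), Nrn1 (0.928), Sord (0.924) and Tor2a (0.921). Ly6al averaged -0.33, -1.18 and -1.38 in stomach, duodenum and jejunum, against 3.78 in ileum and 2.88 in colon. For Nox1 they were Asb12 (0.948), Or4c11 (0.926), Tmem121b (0.879), Zfp275 (0.874) and Or5ac21 (0.872), of which Or4c11 and Or5ac21 are olfactory receptor genes. Asb12 averaged -1.46 in the stomach, -1.96 and -1.93 in duodenum and jejunum, -2.69 in ileum and -3.07 in colon. These correlations are descriptions over samples that share segments and arrays.

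**Figure D5:**
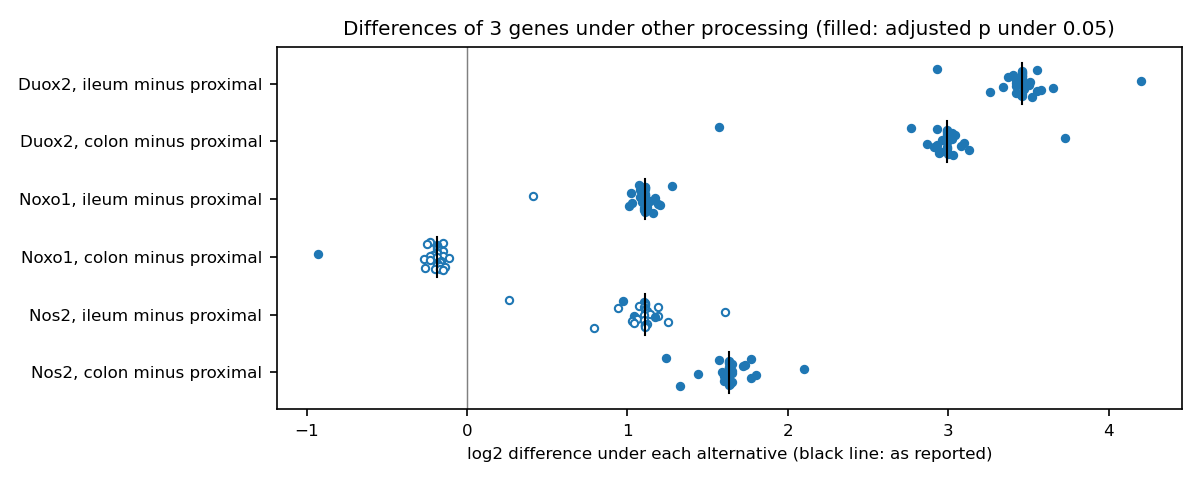
Log2 differences of Duox2, Noxo1 and Nos2 in ileum and colon against the proximal segments under each alternative way of processing, 31 or 32 per row; black lines are the reported values and filled points passed an adjusted p under 0.05. The Duox2 values stay between 1.57 and 4.20 and pass in every alternative run, the Noxo1 ileum value drops to 0.41 without the stomach samples, and Nos2 in the ileum passes in 3 of 32.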

How the data were processed

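Signals were read from the deposited scanner files, whose processed intensity, per the file headers, is background-subtracted and dye-normalised by Agilent Feature Extraction; the deposited value table held the same values (within 0.02 on the log2 scale for 100.0% of spots). Only the channel of each sample's dye was used. Control spots were left out and flagged spots set to missing. Log2 intensities were scaled to each sample's 75th percentile. A probe was kept if all samples of some segment had it well above background (38845 of 41012 probes), and the brightest probe stood for a gene. Names were updated through RefSeq for 11047 probes by accession, 6335 by symbol and 3993 by older symbol; 19637 kept the file's name.

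Differences were fitted with limma 3.58.1 (R 4.3.3, statmod 1.5.0), with segment and dye as terms, the slide as random block (estimated correlation 0.361; residual degrees of freedom, 9) and an intensity trend. Two-sided p-values were adjusted by Benjamini-Hochberg over 33099 genes, with a threshold of 0.05; intervals are 95%. The fit was tested on simulated data. Alternatives changed the background correction (normexp with offset 50, on median signals because colon files carry no mean signal), scaling, filter, probe rule, dye term, block or trend, or left out samples or segments. Averaging colon 2 and 3, blocking by scan and leaving out the 3 samples with the fewest probes well above background were chosen after seeing the data.

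Named were all members, the 5 genes most correlated with Duox2 and with Nox1, and from each pathway list up to 6 passing genes with the largest difference and up to 3 that did not pass. In the list of upstream receptors and signals, Irf1, Il1b and Tlr5 are named outside that rule. In the peroxidase list 1 gene is counted but not reported here by name. Members and lists were chosen with earlier results of these data known. Motifs and the neighbours of Duox2 were chosen after the sequence and values were seen.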

Additional observations from a re-analysis of the deposited data

How the results depend on the processing

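Duox2 passed as higher in the ileum than in the proximal segments in 32 of 32 alternatives (2.93 to 4.20) and in the colon in 31 of 31 (1.57 to 3.73), and Nos2 passed in the colon in 31 of 31 (1.24 to 2.10). Noxo1 in the ileum missed the threshold only without the stomach samples. All reversed values below belong to differences that did not pass, and the cause of each change was not tested. The median of all genes, -0.02 in ileum and -0.04 in colon against proximal as reported, moved by over 0.1 with normexp (-0.13 and 0.32), in the colon with the filter that ignores the stomach flags (0.12) and in the ileum without the stomach samples (0.09).

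Of the 5 members, those that passed numbered 3 in colon minus ileum with normexp, 2 in ileum minus jejunum with the filter that ignores the stomach flags or with no dye term, and 1 in ileum minus proximal without the stomach samples. Genes that passed in ileum minus proximal, 2763 as reported, numbered 4206 with quantile normalisation, 1535 with scan day as block, 1835 without the colon samples and 648 without the stomach samples. Those in colon minus proximal, 10164 as reported, numbered 6476 without the stomach samples and 16624 without the 3 samples with the fewest probes well above background.

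With normexp, Duox1 reversed in jejunum minus stomach (0.16), ileum minus duodenum (-0.01), colon minus duodenum (0.04) and colon minus ileum (0.05), Nox1 in jejunum minus duodenum (0.00), colon minus duodenum (0.05), colon minus jejunum (0.05) and colon minus ileum (0.32), and Nos2 in jejunum minus duodenum (-0.09). With quantile normalisation, Duox1 reversed in jejunum minus stomach (0.08) and ileum minus duodenum (-0.07), and Nox1 in colon minus ileum (0.02). With scan day as block, Duox1 in ileum minus duodenum was -0.03. Without the 3 samples with the fewest probes well above background, Duox1 reversed in ileum minus proximal (0.22), jejunum minus duodenum (-0.03) and ileum minus jejunum (0.35), and Nox1 in jejunum minus duodenum (-0.18).

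Samples with the same replicate number deviated together no more than others (correlations -0.42 to 0.29 over 30 pairs, against -0.38 to 0.55 over 60), so the numbers were not used to pair samples. With the replicate block, 1947 genes passed in ileum minus proximal and 10971 in colon minus proximal, with 2 and 2 members, and Duox1 and Noxo1 in ileum minus duodenum (-0.16 and -0.02) and Nox1 in colon minus ileum (0.29) reversed.

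Leaving out 1 sample at a time gave 1407 to 3813 genes in ileum minus proximal (1407 without ileum 1, 1589 without ileum 2, 1530 without ileum 3, 1784 without duodenum 1, 1837 without stomach 2) and 1 to 2 members in ileum minus jejunum. Over the same samples left out, Duox1 ran from -0.31 to 0.10 in ileum minus proximal, -0.33 to 0.08 in jejunum minus stomach, -0.12 to 0.37 in jejunum minus duodenum, -0.25 to 0.21 in ileum minus duodenum and -0.29 to 0.15 in ileum minus jejunum. Nox1 ran from -0.80 to 0.02 in jejunum minus stomach, -0.29 to 0.62 in jejunum minus duodenum, -0.60 to 0.07 in ileum minus duodenum, -0.87 to 0.07 in colon minus duodenum and -0.35 to 0.13 in colon minus ileum. Noxo1 ran from -0.01 to 0.26 in ileum minus duodenum, and Nos2 from -0.10 to 0.61 in jejunum minus duodenum. Nos2 lay near background in 3 samples, and 3 samples a segment limit the precision.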
